A study of Danio rerio with 24 samples.

Results

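The CpGs described here were the most heavily covered of a zebrafish methylome. They were chosen by their read coverage alone: a CpG was a member when it carried at least 250 reads in each of 4 libraries, and members no more than 500 bp from the next were joined into 1 region. This gave 3695 CpGs in 965 regions, out of 23256360 CpGs listed in at least 1 library (0.0159%) and 21003503 listed in all 4 (0.0176%). Their working description is CpGs in collapsed repeats, but no repeat annotation or genome sequence of the build was used, so the regions are called over-covered regions throughout, and whether they are repeats was not tested by sequence.

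DNA methylation was measured by whole genome bisulfite sequencing (WGBS), in which unmethylated cytosines are converted and read as thymines, in neural crest cells (NCCs) and in 2 pigment cell types that descend from them. Early NCCs (15 somites) and late NCCs (24 hpf) were GFP-positive cells sorted from Tg(crestinA:EGFP) embryos, in which the crestin promoter drives GFP. Melanophores, the black pigment cells, and iridophores, the reflective ones, were isolated by density centrifugation and sorting from larvae at 4 to 5 dpf. These larvae were of mlphaj120, a melanophilin mutant strain. Each cell type had 2 biological replicates, and the authors combined both into 1 library before deposit. NCCs and pigment cells thus differ in fish strain, age and isolation as well as in cell type, and these cannot be told apart. The 2 NCC stages share a strain, and so do the 2 pigment cells. No value has a spread between replicates. Marker expression was not analysed here, so the cell labels are taken as given.

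In vertebrate genomes most CpGs are methylated, and the mark is copied to the new strand at each cell division by the maintenance methyltransferase Dnmt1. Transposons and tandem repeats are usually kept methylated, and promoters rich in CpGs are usually free of the mark. Where an assembly holds fewer copies of a repeat than the animal does, reads from all the copies align to the few that are present, coverage there is far above that of unique sequence, and the measured level is a mean over copies as well as over cells.

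The coverage values that chose the members are given first, as a description. Values for the 4 libraries are given throughout in the order early NCC, late NCC, melanophore and iridophore. Median coverage of the members was 393, 485, 556 and 444 reads, where the median listed CpG of the same libraries had 17, 25, 29 and 21 reads. The members were thus covered 23.1, 19.4, 19.2 and 21.1 times as deeply as the median CpG, and took 0.395%, 0.398%, 0.395% and 0.462% of all reads. The CpG with the most reads over the 4 libraries together was chr7:52740408 (danRer10), with 6547, 9688, 10048 and 8891 reads and levels of 83.4%, 82.2%, 78.6% and 76.3%. Far more CpGs passed the minimum in a single library than in all of them: 11381 did so in at least 1, and 32.5% of those were members. With at least 250 reads behind each level, counting error was small. The rule did not read the levels, and 9190326 CpGs with 10 to 60 reads in every library served as the comparison.

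Over all chromosomes together, over-covered CpGs were less methylated on average than the comparison CpGs in every library. Their mean level was 72.2%, 72.3%, 71.8% and 70.9%. The comparison CpGs averaged 85.6%, 84.7%, 81.8% and 81.4%, so the members lay lower by 13.44, 12.44, 10.01 and 10.44 percentage points. The medians of the members, 90.3%, 89.9%, 88.6% and 87.6%, were much higher than their means. Most members were thus highly methylated and a minority pulled the mean down. In late NCCs 59.1% of the members had a level above 80%, 29.2% were between 20% and 80%, and 11.7% were below 20%. Among the comparison CpGs 83.2% were above 80%, 9.35% were in between and 7.50% were below 20%. The share in between changed little over the 4 libraries for the members, from 27.5% in early NCCs to 29.2% in iridophores, and rose from 8.83% to 14.6% in the comparison CpGs. The depth of the comparison CpGs spreads their single levels more widely.

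**Figure D1:**
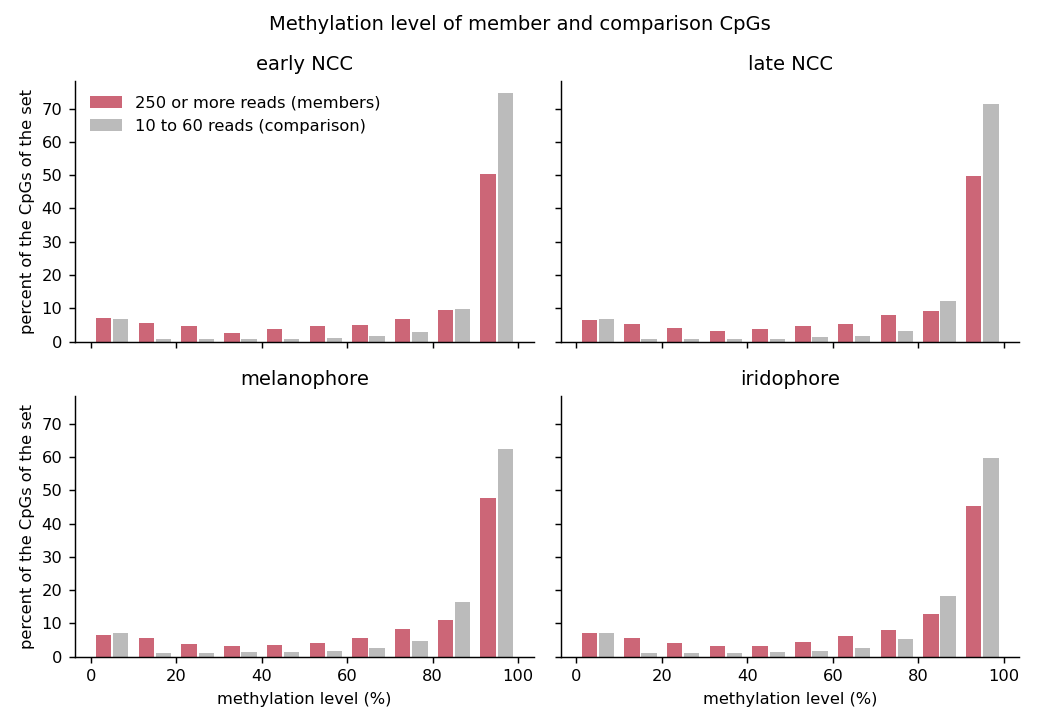
Methylation level of the 3695 member CpGs (250 or more reads in each library, red) and of the 9190326 comparison CpGs (10 to 60 reads, grey), 1 panel per library. The x axis is the level in bins of 10 percentage points and the y axis the percent of the CpGs of the set; in late NCCs 29.2% of the members and 9.35% of the comparison CpGs lie between 20% and 80%.

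The level differed between coverage classes of the members, and with it the mean depends on the minimum chosen. The 2584 CpGs whose lowest coverage was 250 to 499 reads had a mean level of 77.8% in late NCCs, against 59.1% for the 725 CpGs of 500 to 999 reads and 59.7% for the 386 CpGs of 1000 reads or more. There was no step at the minimum itself. The 942 CpGs just outside it (lowest coverage 225 to 249 reads) averaged 83.6% in late NCCs, and the 671 just inside it (250 to 274 reads) averaged 82.3%.

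Regions were small. Of the 965 regions, 331 held a single member CpG, 580 held 2 to 9, and 54 held 10 or more, up to 112, and those 54 carried 32.0% of all members. The median span of a region with 2 or more CpGs was 143 bp and the longest was 3721 bp. Larger regions were more methylated: the mean level in late NCCs was 53.6% over regions of 1 CpG, 67.3% over those of 2 to 9 and 84.0% over those of 10 or more. Member CpGs also lay in CpG-denser sequence than the comparison CpGs, with a median of 18 other listed CpGs within 250 bp on either side against 13, although their nearest neighbour was a little farther away (median 16 bp against 12 bp).

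Of the 6 regions with the most CpGs, 4 were above 90% in each cell type. The largest spanned chr4:53828889-53831388, where 112 of 174 listed CpGs were members, and its level was 91.7%, 91.3%, 91.2% and 90.5%. Next came chr4:55996109-55997873 with 59 CpGs (95.7%, 95.4%, 94.8% and 94.4%) and chr7:34195668-34196955 with 58 (94.4%, 94.0%, 93.7% and 92.7%). The region chr5:826013-826743, with 56 CpGs at a mean of 1607 to 2098 reads each, was at 96.7%, 96.3%, 94.6% and 93.3%. Its Wilson 95% interval for iridophores ran from 93.1% to 93.4%. A read over several CpGs counts at each, so this interval is too narrow. Another large region, of intermediate level, was chr13:3775198-3776285, whose 53 CpGs averaged 75.7%, 76.7%, 77.7% and 77.3%. The remaining one, with 44 CpGs at chr4:76322707-76323428, changed most among them and is described with its locus.

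At the other end stood regions that were almost free of methylation in all 4 libraries. The 3 lowest with at least 3 CpGs were chr13:18987349-18987952 (6.16%, 6.69%, 5.84% and 6.12%), chr15:39614075-39614083 (4.87%, 7.25%, 6.30% and 7.25%) and chr15:45830354-45830918 (5.98%, 6.89%, 6.94% and 5.16%). Comparison CpGs within 2 kb of the second of these were at 83.4%, 77.1%, 75.1% and 71.8%, so the low level did not extend to its surroundings. The highest, at chr25:27441805-27441858, chr10:12065039-12065086 and chr17:46545145-46545158, were at 95.95% or above in every library.

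Members were unevenly spread over the 25 chromosomes. Chromosome 4 held 174 regions (18.0%) and 989 member CpGs (26.8%), although it held 4.11% of the comparison CpGs. Per 100000 listed CpGs it carried 71.2 members, and the next chromosome, 13, carried 23.4. All but 1 of its 174 regions lay beyond 20 Mb, and the first started at 17636717. The long arm of zebrafish chromosome 4 is known as a late-replicating, heterochromatic arm rich in repeats and in gene families of many copies. After chromosome 4 the most regions were on chromosome 8 (77), chromosome 17 (73), chromosome 7 (68) and chromosome 2 (63), and the fewest on chromosome 1 (6), chromosome 12 (8) and chromosome 19 (10). The chromosome ends were not favoured: 2.49% of regions lay within 1 Mb of the first or last listed CpG of a chromosome, against 4.61% of comparison CpGs.

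The members on chromosome 4 were not the ones with a low level. Their mean was 86.7%, 86.9%, 86.9% and 86.6%, and the 2706 members of the other chromosomes averaged 66.8%, 66.9%, 66.2% and 65.2%. Comparison CpGs showed no such contrast, at 86.0%, 85.1%, 82.0% and 81.5% on chromosome 4 and 85.6%, 84.7%, 81.8% and 81.4% elsewhere. On chromosome 4 the members thus lay above the comparison CpGs in every library. Members were lowest on chromosome 17, with a mean of 42.3% in early NCCs.

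Regions also crowded together within chromosomes. With regions less than 100 kb apart counted as 1 locus, there were 402 loci. Of these, 288 held a single region, while 33 held 5 or more and together contained 468 regions (48.5%) in a median span of 36.0 kb. Level followed this crowding on the chromosomes other than 4. There the 848 member CpGs of single-region loci averaged 84.2%, 84.5%, 84.0% and 83.6% in the 4 libraries, and the 645 of loci with 2 to 4 regions averaged 82.4%, 82.3%, 81.2% and 80.1%. The 1213 member CpGs of the 25 loci with 5 or more regions averaged 46.4%, 46.5%, 45.8% and 44.4%, and 52.9% of them were between 20% and 80% in late NCCs. On chromosome 4 the 8 loci with 5 or more regions averaged 85.3%, 84.8%, 83.0% and 82.4%, against 91.4%, 90.9%, 89.8% and 89.4% in its single-region loci. Of these 8 loci, 1 averaged 34.6% in late NCCs and the other 7 had means from 90.9% to 94.2%. The lower mean on chromosome 4 thus came from a single locus. The 100 kb distance and these groups were chosen after seeing the data, and genomic position and coverage move together here: the crowded loci outside chromosome 4 had a median of 735 reads per member in late NCCs, and the single-region loci 388.5. The crowded loci were lower in each coverage class outside chromosome 4. At a lowest coverage of 250 to 499 reads, their 585 member CpGs averaged 48.1% in late NCCs and the 1190 of loci with fewer regions 85.9%. At 1000 reads or more the means were 46.8% (233 CpGs) and 79.3% (126 CpGs).

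**Figure D2:**
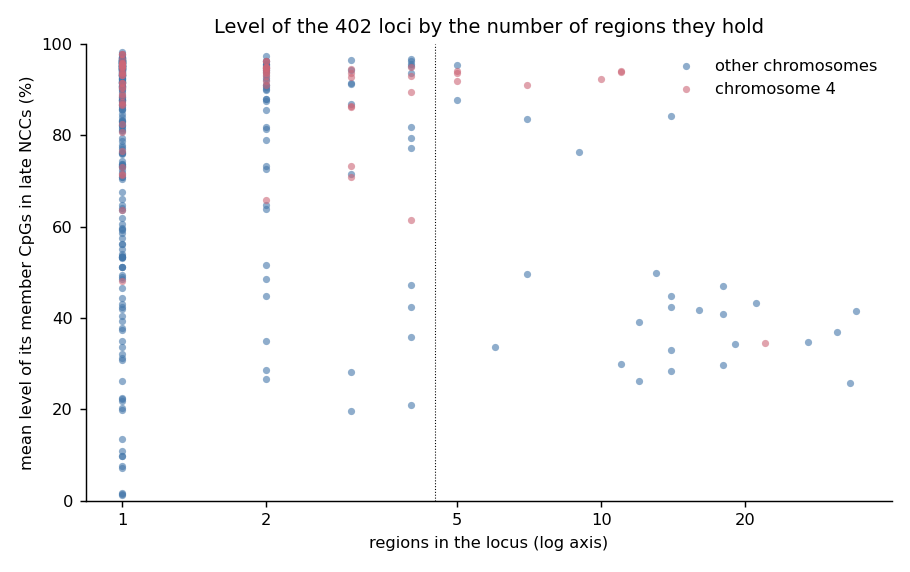
Mean level of the member CpGs of each of the 402 loci in late NCCs (y axis, percent) against the number of over-covered regions in the locus (x axis, log scale), with chromosome 4 in red and the other chromosomes in blue. To the right of the dotted line are the 33 loci with 5 or more regions, of which 21 have means from 25.8% to 49.8% and 12 have means from 76.4% to 95.4%.

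The 33 crowded loci split into 2 kinds with none in between. In late NCCs 21 loci on 14 chromosomes had means from 25.8% to 49.8%, and 12 loci had means from 76.4% to 95.4%. Only 1 of the 21 was on chromosome 4, which held 7 of the 12. The 21 loci, selected on their level, contained 1038 member CpGs with means of 38.2%, 38.3%, 37.3% and 35.8%. The other 2657 member CpGs averaged 85.4%, 85.6%, 85.2% and 84.7%. These means are high partly because the low loci were taken out. They are therefore not set against the comparison CpGs, from which no low part was taken out.

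The largest of the 21 loci, chr10:16825888-16884495, held 34 regions with 113 member CpGs and averaged 41.3%, 41.5%, 41.1% and 39.2%. Its single regions ranged from 4.57% to 80.1% in late NCCs. The locus chr17:45193637-45240604 held 33 regions and averaged 25.7%, 25.8%, 24.4% and 23.0%, and chr2:19774709-19838015 held 31 and averaged 36.5%, 36.9%, 35.6% and 34.01%. The low means thus hid a wide mixture. Over the 374 regions of the 21 loci, 111 were below 20% in late NCCs, 252 were between 20% and 80% and 11 were above 80%, and the median gap between the lowest and the highest region of a locus was 74.97 percentage points. Most of these regions held their level from library to library: the 4 levels of a region had a median range of 4.85 points, and 326 of the 374 (87.2%) stayed within 10 points. There were 9 regions with a range of 20 points or more, up to 42.8. The means of the 21 loci moved by a median of 2.91 points and by 5.84 at most, and compared with late NCCs 18 were lower in melanophores and 21 in iridophores.

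The spacing of the CpGs differed between the 21 loci of low level and the 7 highly methylated crowded loci of chromosome 4. In the 21 loci of low level, pairs of member CpGs lay most often 92 bp apart (25 pairs, in 13 loci) and 368 bp apart (22 pairs, in 14 loci), where a distance from 20 to 2000 bp had a median of 2 pairs. Of the 13 distances with at least 10 pairs, 11 were multiples of 92 bp. Multiples of 92 bp had 10.7 pairs each and other distances 2.01, a ratio of 5.33. The same ratio was 1.03 for the member CpGs outside these loci and outside chromosome 4, and 0.984 for comparison CpGs. The 7 highly methylated crowded loci of chromosome 4 had another period. There 46 pairs lay 177 bp apart, 42 lay 354 bp apart, and 17 each lay 531 bp and 708 bp apart. Multiples of 177 bp had 14.3 pairs each and other distances 0.675, a ratio of 21.1, against 0.345 in the loci of low level and 0.9996 for comparison CpGs. The other member CpGs of chromosome 4 also showed this period, with a ratio of 2.87. The remaining highly methylated crowded loci, on other chromosomes, were not counted apart. Member CpGs outside chromosome 4 and outside the low loci, which include them, had a ratio of 0.726 at 177 bp. Both periods were read from these counts, as the most frequent distance of at least 60 bp, so the ratios describe them and test nothing, and many pairs share a CpG.

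**Figure D3:**
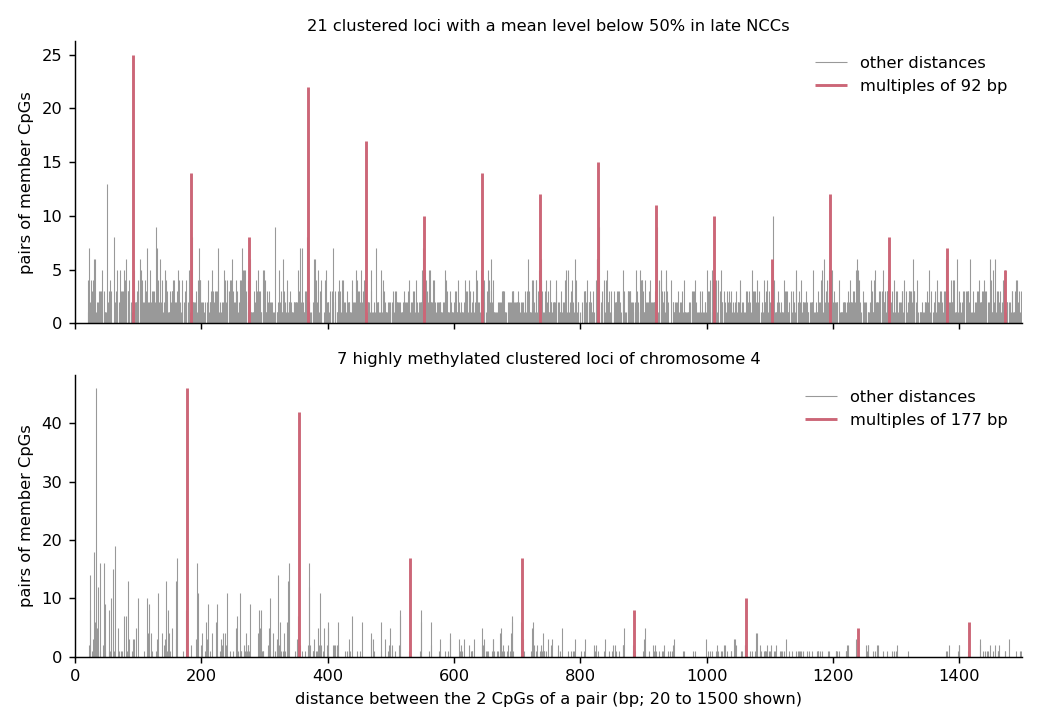
Number of pairs of member CpGs (y axis) at each distance between the 2 CpGs (x axis, bp) in the 21 crowded loci of low level (upper panel) and the 7 highly methylated crowded loci of chromosome 4 (lower panel). Red lines mark multiples of 92 bp in the upper and of 177 bp in the lower panel, with 25 pairs at 92 bp and 46 at 177 bp. They are higher on average than the grey lines of the other distances, but some grey lines stand above some red ones. In the upper panel 51 bp has 13 pairs and 276 bp has 8. A distance of 33 bp is as frequent as 177 bp in the lower panel (46 pairs).

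Levels differed less between CpGs that lay a multiple of the period apart than between other pairs. In the low loci 225 pairs at multiples of 92 bp differed by a mean of 17.5 points in late NCCs and 3937 pairs at other distances by 28.9. On chromosome 4 the 157 pairs at multiples of 177 bp differed by 1.59 points and the 1330 other pairs by 4.80. The same order held in each of the 4 libraries. The period of 177 bp was also visible inside a single region outside the crowded loci. At chr4:32604177-32605255, a region of 24 member CpGs at 94.6% in late NCCs, 10 pairs lay 177 bp apart and 10 lay 354 bp apart.

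Neighbouring members could differ strongly in level. In 214 regions with 5 or more member CpGs the median range of levels within a region was 27.8 points in late NCCs, and in 76 of them (35.5%) it was 50 points or more. These differences recurred in each library. Over the 802 CpGs of those 76 regions, the median range of a single CpG across the 4 libraries was 4.45 points. Over all 3695 members, the levels of 2 libraries had Pearson correlations across CpGs from 0.973 (early NCCs and iridophores) to 0.997 (melanophores and iridophores). CpGs share libraries and reads and are not replicates, so no p is given. Melanophores and iridophores differed by a mean of 1.90 points per CpG, and early NCCs and iridophores by 4.53.

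Other CpGs inside the spans of the regions that missed the minimum numbered 1709, and the 1683 with at least 10 reads in each library averaged 83.5%, 83.6%, 83.0% and 82.6%. In 679 regions at least 3 comparison CpGs lay within 2 kb. There the region means were 73.3%, 73.4%, 72.6% and 71.9% and the flanks were at 82.8%, 82.0%, 80.6% and 79.8%, yet as many regions lay above their flank as below it (48.3% below in late NCCs). Over all 965 regions the means were 63.4%, 63.5%, 62.6% and 61.6%. The even split therefore holds only for a more methylated part of the regions. For 170 regions that stayed between 20% and 80% in all 4 libraries, means of 52.2%, 53.2%, 52.7% and 51.8% faced flanks at 73.9%, 73.4%, 71.9% and 71.0%. These regions were chosen by their own level and the flanks were not, so this difference is partly fixed by the choice.

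As a mean over CpGs, the members changed little across development and differentiation. From early to late NCCs their mean level moved by 0.11 points, while comparison CpGs fell by 0.89. From late NCCs to melanophores the members fell by 0.52 points and the comparison CpGs by 2.94, and from late NCCs to iridophores they fell by 1.37 and 3.37. Pooling reads, which gives the deepest CpGs the most weight, turned the first of these changes and brought the last nearer to the comparison CpGs. The members then fell by 1.79 points from early to late NCCs, by 1.32 from late NCCs to melanophores and by 3.03 to iridophores, and the comparison CpGs fell by 1.26, 3.09 and 3.49. The melanophore and iridophore comparisons share the late NCC library. The small falls were broadly spread: 649 of 965 regions were lower in melanophores and 750 in iridophores than in late NCCs, and 700 were lower in iridophores than in melanophores. Counted by CpG, 65.1%, 72.1% and 66.3% of members were lower at these steps, and 53.9%, 54.4% and 47.0% of comparison CpGs. More comparison CpGs had equal levels in 2 libraries, which lowers their shares. Counting error at their lower coverage also mixes the directions more. These shares therefore do not show which set fell more broadly. Of the 965 regions, 872 (90.4%) had their 4 levels within 10 points and 613 (63.5%) within 5. Comparison CpGs were gathered into 500 bp bins for the same measure, and among 179259 bins with at least 250 summed reads in each library these shares were 87.6% and 61.0%. Median reads in late NCCs were 1215 per region and 439 per such bin, so counting error widens the range more in the bins. These shares therefore do not show which set was steadier.

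Intermediate levels were common among the regions that stayed in the same class of level, although a level can move within its class and some called regions are among them. In all 4 libraries 344 regions (35.6%) stayed between 20% and 80%, 409 (42.4%) above 80% and 115 (11.9%) below 20%. Among the deep comparison bins the shares were 5.16%, 74.5% and 6.53%. In the class from 20% to 80% the 4 levels had a median range of 5.32 points in regions and 5.97 in deep bins. Deep bins had fewer reads than regions, so counting error widens their range more, and this part was not removed. The CpGs that began at 20% to 80% in early NCCs differed between the sets in how they went on. The 1015 members of that class averaged 53.7%, 54.6%, 55.2% and 53.9%, and 3.25% of them changed by 20 points or more from late NCCs to melanophores. The 811169 comparison CpGs averaged 59.2%, 62.7%, 61.4% and 61.2%, and 27.9% changed by 20 points or more. Part of that larger share is counting error at their lower coverage, which was removed by subtracting the binomial variance of both levels. The remaining SD of the change was 6.58 points in members and 16.8 in comparison CpGs. For iridophores it was 7.85 and 17.0. Among CpGs that began at 90% to 100%, the members went from 95.6% in early NCCs to 95.02%, 94.0% and 93.3%, and the comparison CpGs from 97.1% to 94.9%, 91.3% and 90.9%. Both classes were set by the measured early NCC level, so the step from early to late NCCs is partly fixed by that choice. That part is larger at the lower coverage of the comparison CpGs. The early NCC levels do not enter the steps from late NCCs.

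For single regions, a two-sided Fisher's exact test set the summed methylated and unmethylated reads of 2 libraries against each other, with p-values adjusted by the Benjamini-Hochberg method over 965 regions and 1237793 comparison bins together. A region was called at an adjusted p below 0.01 and a difference of at least 10 points. With 1 library per cell type such a test compares the reads of 2 libraries and not the conditions, and a read over several CpGs counts at each, so that p-values are too small. From early to late NCCs 16 regions were called higher and 5 lower, where 0.162% of comparison bins were called higher and 0.73% lower. The 16 are 1.66% of the regions and the 5 are 0.518%. From late NCCs to melanophores 11 were called higher (1.14%, bins 0.75%) and 13 lower (1.35%, bins 8.05%). From late NCCs to iridophores 10 were called higher (1.04%, bins 0.684%) and 20 lower (2.07%, bins 7.53%). Between melanophores and iridophores 2 were called higher in iridophores (0.207%, bins 2.25%) and 1 lower (0.104%, bins 2.21%). Regions had a median of 1215 reads in late NCCs and bins 178. In the deep bins the called shares were 0.272% and 1.07%, 0.715% and 6.06%, 0.822% and 5.52%, and 2.19% and 1.63%, in the same order. The share of regions called lower in pigment cells was thus under that of the bins at either depth.

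**Figure D4:**
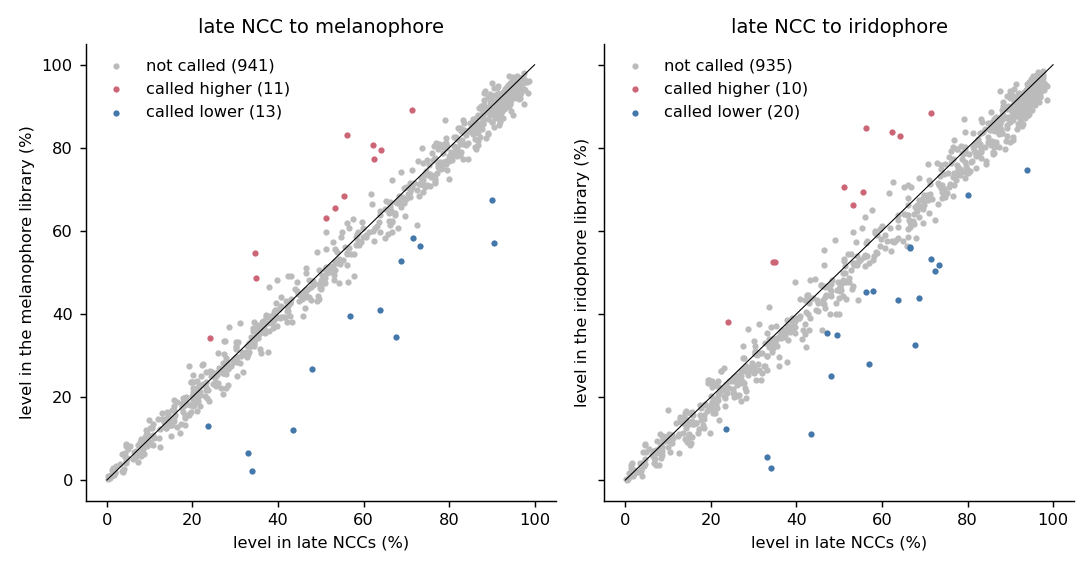
Level of the 965 over-covered regions in late NCCs (x axis, percent) against their level in the melanophore (left) and iridophore (right) libraries (y axis, percent). The line is equality, red points are regions called higher (11 and 10) and blue points regions called lower (13 and 20), and grey points are regions that were not called.

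In all, 50 regions (5.18%) in 33 loci were called in at least 1 comparison, and 31 of them held a single CpG. Of the called regions, 10 were higher in both pigment cells than in late NCCs and 11 were lower in both. No share of comparison bins is given for these joint counts, so they show neither an excess nor a lack of calls. At some of the called regions coverage was lower in the pigment cells. The coverage of a region relative to its library's median CpG, taken as the pigment mean over the NCC mean, was below 0.8 in 114 of the 941 regions not called between late NCCs and melanophores (12.1%). It was below 0.8 in 7 of 13 regions called lower and 4 of 11 called higher. For iridophores the counts were 9 of 20, 4 of 10 and 112 of 935. The 4 called higher were the same regions both times, and all lay at the chromosome 4 locus described next. Several of those called lower shared the locus chr4:28568684-28627421, so these regions are not independent cases. The part of coverage in the called changes was not tested.

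The largest rises into the pigment cells among regions with at least 3 CpGs were at 1 locus on chromosome 4, where 4 over-covered regions lay between 76321453 and 76326039. The main one, chr4:76322707-76323428, held 44 member CpGs, with levels of 49.1%, 62.3%, 80.6% and 83.9%. The Wilson 95% interval was 48.5% to 49.8% in early NCCs and 83.3% to 84.5% in iridophores. Both are too narrow, because a read over several CpGs counts at each. The 3 others moved the same way. At chr4:76321453-76321524 (9 CpGs) the levels were 46.4%, 55.5%, 68.5% and 69.5%. At chr4:76324331-76324473 (6 CpGs) they were 58.5%, 71.4%, 89.2% and 88.5%. At chr4:76325588-76326039 (3 CpGs) they were 45.8%, 51.2%, 63.2% and 70.5%. The rise was shared by nearly every member CpG: all 62 members were higher in late than in early NCCs, and 60 of 62 were higher in each pigment cell than in late NCCs. Their mean went from 49.4% to 61.4%, 78.4% and 81.3%. The rise was not confined to members. Comparison CpGs within 2 kb of the main region (7 CpGs) were at 54.6%, 61.1%, 72.2% and 90.6%. Around the region of 6 CpGs they were at 54.1%, 60.3%, 66.0% and 81.2% (12 CpGs), and around that of 3 at 51.3%, 54.8%, 63.8% and 71.7% (21 CpGs). Around the region of 9 CpGs they were at 59.6%, 57.8%, 79.6% and 75.8% (4 CpGs). These flanks can share CpGs.

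Coverage of this locus fell as its level rose. Median coverage of the 62 CpGs relative to the median CpG of the library was 34.4, 16.9, 14.3 and 13.1. In its region of 3 CpGs the mean number of reads per CpG went from 1013 in early NCCs to 606, 403 and 250. All 3 had 250 reads in iridophores, the least a member can have, and 34 CpGs were listed in its span. The ratio of relative coverage in pigment cells to NCCs was 0.308 to 0.622 in the 4 regions, and its median over all 965 regions was 0.968, with a 5th to 95th percentile of 0.74 to 1.31. Only 2 regions had a ratio of at most 0.5, 1 of them in this locus, and none reached 2. The minimum of 250 reads in each library leaves out CpGs with fewer in any of them. How few regions had extreme ratios is thus partly fixed by the rule. Between the 2 NCC stages, which share a strain, relative coverage went from 34.4 to 16.9 and the mean level from 49.4% to 61.4%. Between NCCs and pigment cells, strain, age, isolation and cell type cannot be told apart, and the part of coverage in the rise was not tested. A larger difference was measured at a single CpG, chr10:15802364, which was at 54.3%, 56.25%, 83.0% and 84.7% with a ratio of 0.896.

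**Figure D5:**
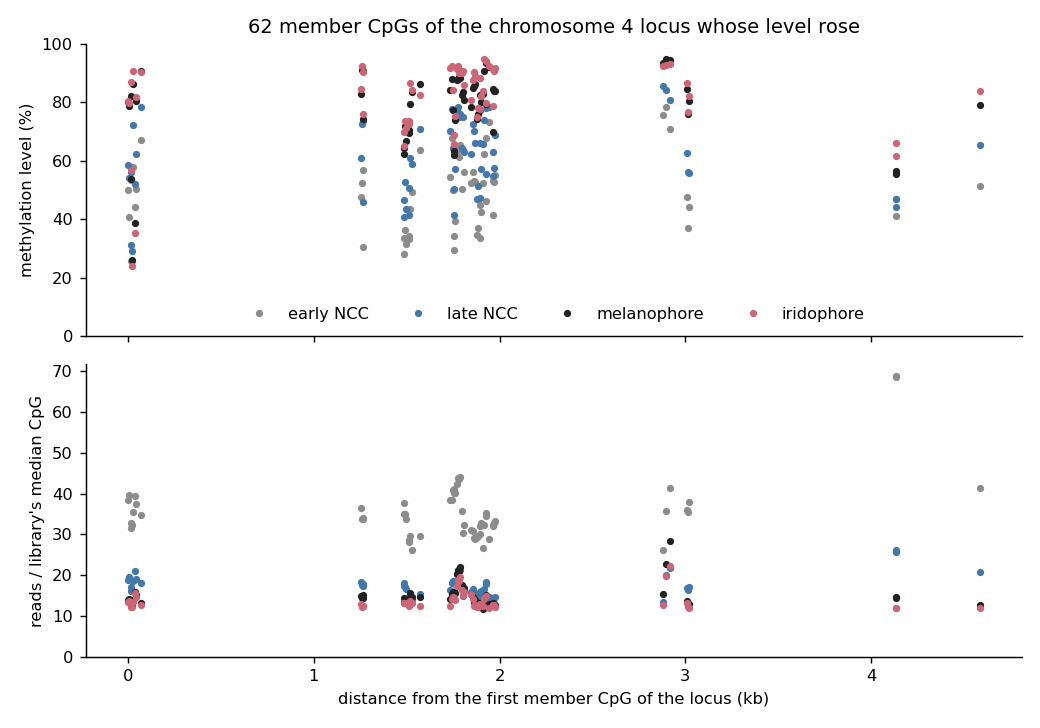
Level (upper panel, percent) and coverage relative to the median CpG of the library (lower panel) of the 62 member CpGs of the chromosome 4 locus from 76321453, by distance from its first member CpG (x axis, kb), with 1 colour per library. From early NCCs to iridophores, in the order of the legend, the mean level is 49.4%, 61.4%, 78.4% and 81.3% and the median relative coverage 34.4, 16.9, 14.3 and 13.1.

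Among regions with at least 3 CpGs, the largest fall was at chr7:52756959-52757363, with 3 CpGs at 36.0%, 33.9%, 2.24% and 2.93%. The differences from late NCCs were -31.7 and -31.0 points (adjusted p = 1.96e-131 and 5.21e-101, Fisher's exact test, Benjamini-Hochberg), and -28.1 and -27.6 points when CpGs were weighted equally. The region's ratio of relative coverage was 0.572. Its single CpGs ranged from 2.38% to 51.5% in early NCCs and from 3.72% to 51.8% in late NCCs. In melanophores and iridophores they were at most 2.77% and 3.91%. At least 1 of the 3 CpGs was thus already nearly unmethylated in NCCs, and the fall was not shared by all of them. The other named fall was chr4:28595209-28595620, with 3 CpGs at 19.1%, 23.6%, 12.9% and 12.2%.

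That region belonged to the only crowded locus of low level on chromosome 4, chr4:28568684-28627421, where 5 of 22 regions were called and the mean of 48 member CpGs was 35.0%, 34.6%, 30.7% and 29.7%. Of its single CpGs, chr4:28582406 was at 53.8%, 43.4%, 12.1% and 11.003%, and chr4:28597596 was at 36.3%, 33.1%, 6.55% and 5.44%. The relative coverage of the latter in pigment cells was 0.452 of that in NCCs. A single CpG at chr21:44163086 was at 76.7%, 67.7%, 34.3% and 32.5%, with a ratio of 0.619.

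Between the 2 NCC stages, the 2 largest called gains with at least 3 CpGs and the only such fall were named by rule. A gain on chromosome 1 was added after its value was seen, so the named changes do not show which direction prevailed. Over all 965 regions 452 were higher and 513 lower in late than in early NCCs. Counted by CpG, 55.1% of members and 47.5% of comparison CpGs were lower, with the same limits from equal levels and counting error as at the later steps. The 5 CpGs of chr20:32393138-32393158 rose from 22.3% to 51.9% and were then at 50.1% and 54.4% in the pigment cells. The 8 CpGs of chr3:56287351-56287673 rose from 20.2% to 40.7% and were then at 42.0% and 39.5%. At both, the adjusted p of Fisher's exact test (Benjamini-Hochberg) was 3.30e-88 or lower. The 7 CpGs of chr1:11933536-11933560 went from 20.3% to 37.9%, 39.3% and 37.2%. Early NCCs thus stood apart from the 3 later libraries at these regions, which is partly fixed because the regions were chosen for that change. Late NCCs, melanophores and iridophores lay within 4.3 points of one another. Comparison CpGs within 2 kb of the chromosome 20 region (22 CpGs) instead fell into the pigment cells, at 93.2%, 90.6%, 22.5% and 20.96%. Around the chromosome 3 region (26 CpGs) they were at 41.99%, 42.6%, 56.7% and 55.7%. Around the chromosome 1 region (5 CpGs) they were at 71.4%, 82.6%, 76.6% and 75%. The only called fall with at least 3 CpGs, chr24:16133525-16133792, went from 31.8% to 21.8%, then 17.7% and 14.4%. With its 3 CpGs weighted equally the fall between the NCC stages was 5.84 points, below the 10 points needed for a call.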

How the data were processed

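The study's 24 samples include 8 of WGBS, 2 for each of 4 cell types. The other 16, of other assays, were not analysed here. Per the labels and methods, the authors used Cutadapt for trimming, Bismark for alignment to danRer10 and for methylation extraction (with a custom script), and Picard MarkDuplicates against duplicates. Their versions are not given in the sources used here. The authors combined both replicates, and the deposited level of each CpG is a fraction, methylated over all reads. The deposited read count is its coverage, without normalization. Methylated reads are level times reads, rounded; the product was never more than 0.0044 from a whole number.

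Total CpG reads ran from 521292949 (early NCCs) to 794596680 (melanophores). Positions are the last coordinate of each listed CpG, in danRer10. No genome of that build was used, so no sequence or gene is named.

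The level of a set of CpGs or a locus is the mean over CpGs, and that of a region is its methylated reads over its reads. Comparison CpGs were grouped into 500 bp bins with at least 3 CpGs. Regions and bins were tested together by two-sided Fisher's exact test with Benjamini-Hochberg adjustment, after the code was tested on simulated data (Python 3.11.15, numpy 2.4.6, numba 0.67.0). Wilson 95% intervals cover counting error only, and they are too narrow for a region, where a read over several CpGs counts at each. Regions were named by rule: the 6 with the most CpGs, the 3 lowest and 3 highest in mean level with at least 3 CpGs, and, for each comparison, the 2 largest called rises and 2 largest called falls with at least 3 CpGs. Loci, single CpGs, and the other regions given (on chromosome 1 and at the rising and the periodic loci of chromosome 4, and the pairs that differ between pigment cells) were chosen after their values were seen. Members, lists and groups were chosen with earlier results of these data known. Alternatives changed the read minimum, the join distance, the comparison CpGs, the weighting, the minimum difference and the chromosomes used. No columns of per-sample values were left unmatched.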

Additional observations from a re-analysis of the deposited data

Results flagged for a closer look

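There were 3 regions, of 1 or 2 CpGs each, that differed between the 2 pigment cell libraries by the same exact test, and each was compared with the late NCC library that both share. At chr4:44764748-44764752 the level was 91.6%, 90.6%, 57.1% and 81.9% (early NCCs, late NCCs, melanophores, iridophores), a difference of 24.8 points between the pigment cells. The CpG at chr25:7419854 was at 86.8%, 90.04%, 67.5% and 81.4%, a difference of 14.0 points. The other direction was seen at chr19:42837362-42837400, which was at 97.2%, 93.8%, 91.3% and 74.6%, a difference of -16.7 points. None has replicate support, and 2.25% and 2.21% of comparison bins were called higher and lower in iridophores by the same rule.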

How the results depend on the processing

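No paired analysis was possible because the files hold 1 combined library per cell type, and no replicate could be left out. The members lay below the comparison CpGs under each setting tried, but by amounts that moved. In the order early NCCs, late NCCs, melanophores and iridophores, the difference was -9.35, -8.35, -5.99 and -6.27 points with a minimum of 200 reads, and -26.3, -25.4, -23.3 and -24.1 with 500. It was -11.2, -10.2, -7.76 and -8.11 with a minimum of 10 times each library's median coverage, and -14.4, -13.4, -11.1 and -11.6 against comparison CpGs of 20 to 40 reads. As a mean over regions it was -22.2, -21.2, -19.2 and -19.7, and over pooled reads -18.0, -18.6, -16.8 and -18.1. Without chromosome 4 it was -18.7, -17.8, -15.5 and -16.2, and with regions of at least 3 CpGs only -10.1, -9.08, -6.57 and -6.93.

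Called regions numbered 21 from early to late NCCs, 24 from late NCCs to melanophores, 30 to iridophores and 3 between pigment cells. In the same order a minimum difference of 5 points gave 56, 47, 93 and 12, one of 30 points 1, 4, 3 and 0, and a minimum of 500 reads 13, 3, 8 and 0. Regions with at least 3 CpGs only, a setting added after seeing the data, gave 6, 7, 9 and 0. Beside these counts of 0 between pigment cells, 23 regions were higher and 188 lower in iridophores at an unadjusted p under 0.05 (Fisher's exact test). No share of comparison bins is given at that threshold or for the alternative counts of this paragraph. The p-values are too small, because a read over several CpGs counts at each, so no direction is read from these counts. A minimum of 200 reads gave 45, 55 and 5 for the 3 later comparisons, and 10 times the median gave 47 to iridophores. From early to late NCCs, joining within 200 bp gave 34, joining within 1000 bp 11, and mean reads per CpG 10. The members numbered 6004 with 200 reads, 1111 with 500 and 5302 with 10 times the median. Chromosome 4 held 18.0% of regions but 26.8% of CpGs. Of 184 changes of named regions recomputed, 180 moved by less than 3 points and no called change turned its sign. The sign turned in 7 that were not called, of at most 1.01 points before and 0.504 after. The cause of these shifts was not tested, although the read minimum, the join distance and the minimum number of CpGs change which regions enter.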
